A study of Mus musculus with 25 samples.

Results

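The genes described here are 10 components of the pathway by which cells display peptides on major histocompatibility complex (MHC) class I molecules: H2-K1, H2-D1, B2m, Tap1, Tap2, Tapbp, Psmb8, Psmb9, Psmb10 and Nlrc5. They were chosen by name, as 10 of the 24537 genes in the count table. No rule on their measured levels was used, but earlier results of these data were known. All 10 were among the 14133 genes with enough counts to be tested. Polyadenylated RNA was sequenced from 25 liver samples of male C57BL6/J mice aged 24 months. The design crossed genotype, a p53 knockout (p53KO) or a knockout at the Rosa26 locus (Rosa26KO), with diet, a control diet or a high-fat diet (HFD). Every group therefore carried a knockout, and the Rosa26KO mice served as the comparison for p53KO. The groups were Rosa26KO on control diet (Control_Rosa26KO, n = 6), Rosa26KO on high-fat diet (HFD_Rosa26KO, n = 6), p53KO on control diet (Control_p53KO, n = 6) and p53KO on high-fat diet (HFD_p53KO, n = 7). The labels used here do not say how the knockouts were made, in which cells they act, or how long the diets were fed.

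MHC class I molecules present short peptides from a cell's own proteins to CD8+ T cells. Proteasomes cut the peptides, the Tap1 and Tap2 transporter moves them into the endoplasmic reticulum, and tapasin (Tapbp) helps to load them on a heavy chain (H2-K1 or H2-D1 in C57BL/6 mice) that is paired with beta-2-microglobulin (B2m). Interferons raise the expression of these genes and exchange the catalytic proteasome subunits Psmb5, Psmb6 and Psmb7 for the immunoproteasome subunits Psmb8, Psmb9 and Psmb10, while Nlrc5 is the transcriptional activator that acts at class I promoters. Hepatocytes are known for low class I levels beside the immune and endothelial cells of the liver.

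Most of these genes lie in the MHC on chromosome 17 (positions from GENCODE M21 on GRCm38). Tapbp occupies 33915899 to 33929292, H2-K1 33996017 to 34000347 and H2-D1 35262730 to 35267499. Psmb9 (34181987 to 34187764), Tap1 (34187553 to 34197225), Psmb8 (34197721 to 34201454) and Tap2 (34203527 to 34216321) form a cluster in which Psmb9 and Tap1 are transcribed away from each other. B2m lies on chromosome 2 (122147686 to 122153083), and Psmb10 (105935735 to 105938444) and Nlrc5 (94434356 to 94527272) lie on chromosome 8. The promoters of the heavy chains, of B2m and of the Psmb9 and Tap1 pair are shown because the counts of these genes carry the results on diet and on joint variation. Each is the RefSeq sequence upstream of an annotated start on GRCm38.p6, with H2-K1 taken from the more downstream of its annotated starts (chr17:34000334-34000533, minus strand), H2-D1 from chr17:35262894-35263093 (plus strand) and B2m from chr2:122147487-122147686 (plus strand). The H2-D1 stretch lies upstream of its RefSeq start but inside the longer GENCODE gene, which begins at 35262730. The stretch between the RefSeq starts of Psmb9 and Tap1 is chr17:34187331-34187555 on the plus strand, although a longer Psmb9 model in GENCODE runs through it. Capitals mark matches on either strand to TTTCNNTT (the core of the interferon-stimulated response element), GGGANNNCC (kappa B), TGACG (the core of the X2 box and of the cyclic AMP response element) and CCAAT (the Y box), motifs picked from textbook knowledge with the sequences in view.
H2-K1: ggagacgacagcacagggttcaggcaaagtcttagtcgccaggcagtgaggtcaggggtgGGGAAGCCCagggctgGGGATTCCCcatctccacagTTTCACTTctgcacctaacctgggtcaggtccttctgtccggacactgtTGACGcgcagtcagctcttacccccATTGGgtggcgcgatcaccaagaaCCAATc
H2-D1: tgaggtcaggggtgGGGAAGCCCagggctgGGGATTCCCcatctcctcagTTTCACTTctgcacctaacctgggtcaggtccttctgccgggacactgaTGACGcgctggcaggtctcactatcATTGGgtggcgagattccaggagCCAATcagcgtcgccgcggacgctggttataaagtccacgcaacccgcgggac
B2m: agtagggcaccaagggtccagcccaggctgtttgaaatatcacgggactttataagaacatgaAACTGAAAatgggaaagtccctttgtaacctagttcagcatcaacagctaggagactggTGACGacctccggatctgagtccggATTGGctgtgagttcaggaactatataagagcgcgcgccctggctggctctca
Psmb9 to Tap1: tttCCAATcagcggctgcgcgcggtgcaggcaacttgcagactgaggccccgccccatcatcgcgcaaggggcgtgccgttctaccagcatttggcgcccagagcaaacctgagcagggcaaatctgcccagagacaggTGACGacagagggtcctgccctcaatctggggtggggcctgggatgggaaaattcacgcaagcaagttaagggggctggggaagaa

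In the 250 bases upstream of the start, the promoters of H2-K1 and H2-D1 held all 4 motifs in the same order, with 2 matches to the kappa B pattern in each. All 4 occurred together in 60 of 32851 RefSeq mouse promoters of this length (0.183%). The H2-K1 and H2-D1 sequences aligned over 192 columns with 172 identical (89.6%). B2m held TTTCNNTT, TGACG and CCAAT, a combination in 1.08% of promoters. It had no match to GGGANNNCC, a short form of the kappa B site that does not cover its longer forms, so no contrast with the heavy chains is drawn from this motif. Psmb9 and Tap1 shared the same matches to TGACG and CCAAT in the interval between them, Tapbp held CCAAT alone, and Psmb8 and Psmb10 held none of the 4. Singly, TTTCNNTT was in 21.3% of all promoters, GGGANNNCC in 15.8%, TGACG in 17.8% and CCAAT in 33.8%. A match is a description of the letters in this window. Tap2 and Nlrc5 have no entry in the promoter table.

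Total counts per library ran from 16324283 to 21501281, and the members' raw counts from 297 (Psmb9) to 75058 (B2m). Values below are CPM, read counts scaled to a common library size after TMM normalisation. Trp53 was lower in p53KO than in Rosa26KO by a log2 difference of -0.56 (averaged over diets, SE 0.10), and it did not pass the threshold over all genes (adjusted p = 0.210, edgeR quasi-likelihood test with Benjamini-Hochberg adjustment). Control_p53KO 3 stood apart in immune markers. Its summed T and NK cell markers (16 of 17 in the table) reached 225 CPM against 14.1 to 92.3 in the other libraries, and its Kupffer cell markers (10 of 10) reached 4022 CPM against 274 to 1508. Neutrophil markers (8 of 8) were high in Control_p53KO 1 (553 CPM), HFD_Rosa26KO 6 (330 CPM) and Control_p53KO 3 (100.2 CPM) against 6.77 to 56.7 in the rest. Hepatocyte markers (8 of 8) had median sums of 141029 CPM on control diet and 86027 CPM on HFD in Rosa26KO, and of 134935 CPM and 67108 CPM in p53KO, and no marker of these lists was at 0 in all libraries. In bulk liver, fewer cells of a type and less RNA per cell cannot be told apart. The library names form 3 runs of consecutive numbers, each with all 4 groups, whose meaning is not given.

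Per kilobase of annotated exon, B2m was the most abundant of the 10 genes, at 3251 CPM per kilobase (SD 457, n = 25 libraries). The heavy chains followed, with H2-K1 at 554 (SD 84.4) and H2-D1 at 435 (SD 91.1). Loading and processing genes were lower by more than their spread. Tapbp stood at 59.7 CPM per kilobase (SD 9.64), Psmb10 at 21.1 (SD 3.38) and Psmb8 at 14.7 (SD 3.43). Tap1 at 13.3 (SD 3.15) and Tap2 at 12.6 (SD 1.94), the partners of a heterodimer, did not differ from each other beyond 1 SD, nor did Tap1 from Psmb8. Psmb9 at 7.27 (SD 1.54) and Nlrc5 at 5.67 (SD 1.32) were the lowest on this measure. The length used counts every base in any annotated exon, 3660 for Psmb9 and 3381 for Psmb8 against 860 for B2m. A gene whose expressed transcripts are shorter than this gets too low a value. The order between genes, and the likeness of Tap1 and Psmb8, thus depend on the annotation.

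**Figure D1:**
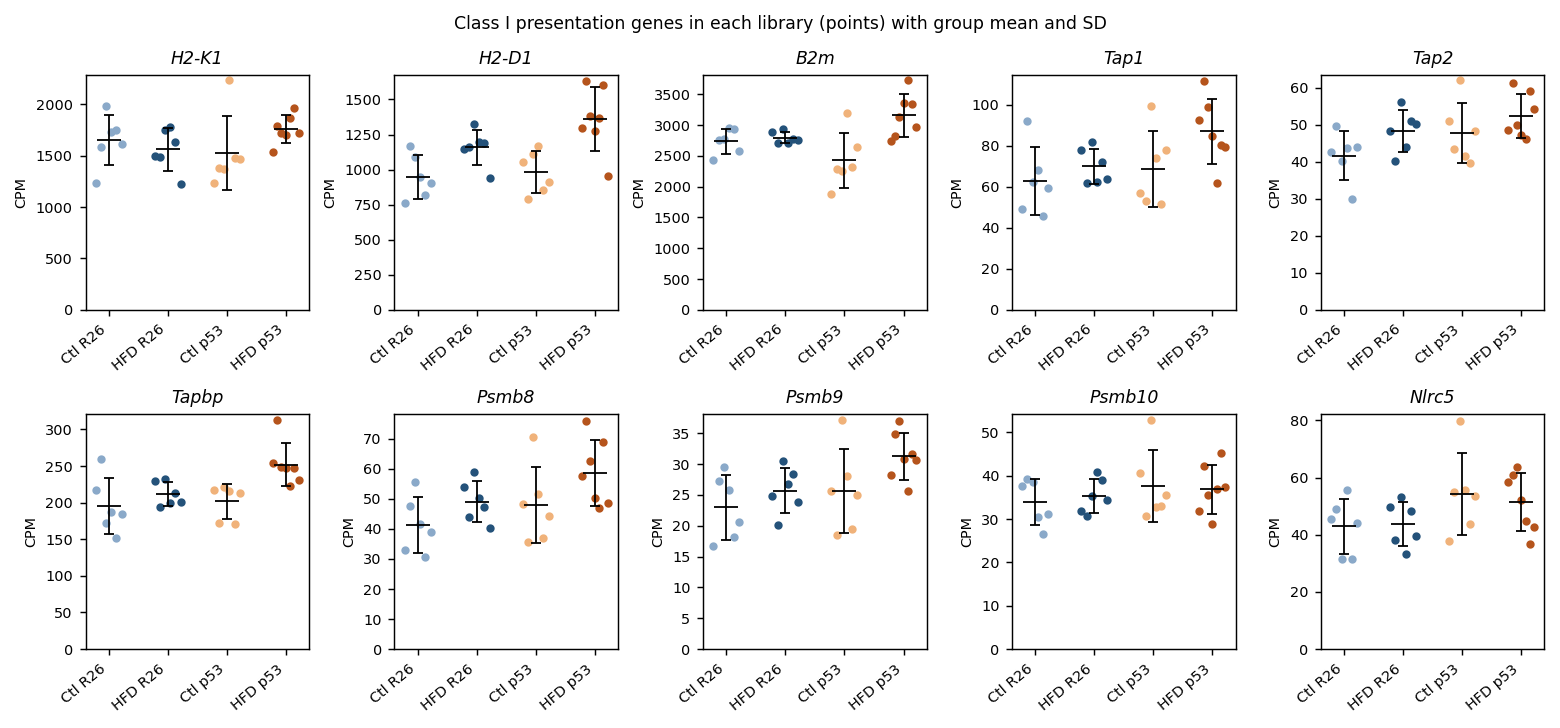
CPM of the 10 genes (vertical axes, from 0) in each of the 25 libraries (points) by group, with the group mean and SD (black bars). H2-D1 had median levels of 1176 and 1371 CPM in the HFD groups against 924 and 984 CPM in the control-diet groups, while Nlrc5 medians were 44.8 and 54.3 CPM on control diet and 43.9 and 52.0 CPM on HFD (Rosa26KO first).

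Of the 10 genes, H2-D1 alone rose on HFD by edgeR when the diet difference was averaged over genotypes. H2-D1, a classical class I heavy chain, ran in Control_Rosa26KO from 764 CPM to 1168 CPM with a median of 924. In HFD_Rosa26KO its lowest, median and highest levels were 939, 1176 and 1328 CPM. In the p53KO groups these were 789.6, 984 and 1169.6 CPM on control diet and 957, 1371 and 1634 CPM on HFD. All 6 HFD_Rosa26KO libraries and 6 of 7 HFD_p53KO libraries lay above the median of their control-diet group. The diets overlapped in Rosa26KO, where 3 HFD libraries exceeded the highest on control diet, and in p53KO through HFD_p53KO 7, the others all lying above the Control_p53KO range. The averaged log2 difference was 0.38 (SE 0.096, adjusted p = 0.0141, edgeR quasi-likelihood test). In this comparison 1 of 10 members was called, against 9.71% of all genes tested and 4.64% called as higher. The difference was 0.48, 0.27 and 0.42 within the 3 runs of library names, and 0.35 to 0.41 with each library left out in turn (adjusted p 0.00385 to 0.0326).

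Within a genotype H2-D1 did not pass in the edgeR fit without further terms. The log2 difference was 0.29 (SE 0.14, adjusted p = 0.279) in Rosa26KO and 0.47 (SE 0.13, adjusted p = 0.0563) in p53KO by edgeR, and the interaction of diet and genotype, the test of the difference between them, was 0.18 (SE 0.19, adjusted p = 0.765). In Rosa26KO, 0 of 10 members were called against 1.51% of genes, and 1 member (H2-D1) had an unadjusted p under 0.05. DESeq2 called 0 members there (4.35% of genes) and limma voom with sample weights called 1, H2-D1 (21.5% of genes). In p53KO, edgeR called 0 members against 2.87% of genes, with 3 at an unadjusted p under 0.05. With a term for runs of library names, H2-D1 (0.49, adjusted p = 0.0316) and B2m (0.38, adjusted p = 0.0464) passed there by edgeR. DESeq2 called 3 (H2-D1, B2m and Tapbp; 6.42% of genes) and voom called 6 (those with Tap1, Psmb8 and Psmb9; 15.5% of genes). For the average over genotypes, DESeq2 called 3 members (H2-D1, B2m and Tapbp; 12.7% of genes) and voom 7 (35.4% of genes).

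H2-K1, the other classical heavy chain, did not pass the test. Its lowest, median and highest levels were 1237, 1672 and 1981 CPM in Control_Rosa26KO and 1224, 1565 and 1779 CPM in HFD_Rosa26KO. In p53KO they were 1231, 1423 and 2236 CPM on control diet and 1532, 1724 and 1962 CPM on HFD. No HFD library exceeded the highest control-diet library of its genotype. In p53KO that library was Control_p53KO 4, while the other 5 ran from 1231 to 1473 CPM, below all 7 HFD libraries. The averaged log2 difference was 0.06 (SE 0.096, adjusted p = 0.751, edgeR). The difference was -0.08 (SE 0.14) in Rosa26KO and 0.20 (SE 0.13) in p53KO.

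The balance between the heavy chains was compared as the ratio of H2-D1 to H2-K1 counts within a library, which does not depend on how libraries are scaled. This test was chosen after the values of the heavy chains had been seen. In Rosa26KO the mean ratio of CPM was 0.579 ± 0.0900 on control diet and 0.746 ± 0.0407 on HFD (SD, n = 6 each). In p53KO it was 0.661 ± 0.138 on control diet (SD, n = 6) and 0.774 ± 0.114 on HFD (SD, n = 7). HFD libraries thus had more H2-D1 relative to H2-K1, with overlap between the diets in each genotype. Averaged over genotypes the ratio was 1.24-fold higher on HFD (log2 difference 0.31, two-sided exact permutation test within genotype, p = 0.00258, adjusted over 6 comparisons 0.0155). In Rosa26KO it was 1.30-fold higher (exact permutation p = 0.00649, adjusted 0.0195), and in p53KO 1.18-fold (exact permutation p = 0.132, adjusted 0.263). The averaged log2 difference was 0.26, 0.32 and 0.37 within the 3 runs of library names. Between genotypes it was 0.11 (exact permutation p = 0.227, adjusted 0.291). In Control_p53KO the ratios of libraries 1 and 3, 0.857 and 0.811, stood above the other 4, which ran from 0.523 to 0.623. These are also the libraries of that group with the highest neutrophil marker sums. Without these libraries, left out after the data had been seen, the averaged diet difference was 0.40 (exact permutation p = 0.000138, not adjusted). In p53KO it was then 0.42 (exact permutation p = 0.0182, not adjusted). Leaving them out lowers the control-diet level in p53KO. The genotype difference on control diet was then -0.00007, against 0.18 with all libraries. The part of neutrophil content in the ratio was not tested.

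Sequence likeness limits what the heavy chain counts separate. Of the 75-base windows in H2-K1 transcripts 3.10% occurred in transcripts of other genes, and of those in H2-D1 5.4%, with H2-Q10 and H2-Q1 as the genes sharing most. Tapbp shared 1.10% of its windows and the other 7 members 0%. The count table also holds a row H2-L, named for a heavy chain gene that the haplotype of C57BL/6 mice is known to lack and that is not in the annotation used here. H2-L had group means of 619.8 CPM on control diet and 777 CPM on HFD in Rosa26KO, and of 659 CPM and 906 CPM in p53KO. The ratio of H2-D1 to H2-L was nearly fixed, with group means of 1.49 to 1.53 and an SD of at most 0.0402. H2-L rose on HFD with H2-D1 (averaged log2 difference 0.39, SE 0.0998, adjusted p = 0.0142, edgeR). Given the fixed ratio, this is not a result separate from that of H2-D1.

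**Figure D2:**
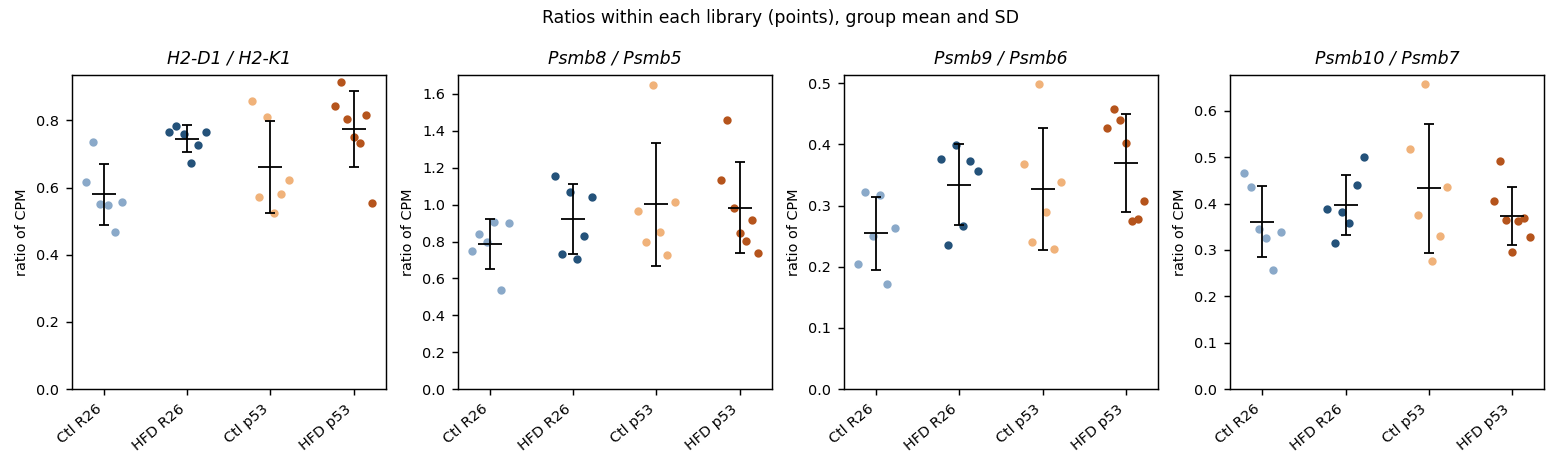
Ratios of CPM within each library (points; vertical axes from 0) with group mean and SD (black bars), for H2-D1 over H2-K1 and for each immunoproteasome subunit over the constitutive subunit it replaces. The mean ratio of H2-D1 to H2-K1 was 0.746 and 0.774 in the HFD groups against 0.579 and 0.661 in the control-diet groups.

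B2m, the light chain shared by all class I molecules, had levels in Rosa26KO of 2441, 2763 and 2953 CPM (lowest, median, highest) on control diet and 2712, 2767 and 2932 CPM on HFD. In p53KO these were 1887, 2301 and 3191 CPM on control diet and 2739.7, 3133 and 3731 CPM on HFD. In Rosa26KO the HFD range lay inside the control-diet range, while all 7 HFD_p53KO libraries lay above the Control_p53KO median and 3 above its highest library. The averaged diet difference was 0.20 on the log2 scale (SE 0.082, adjusted p = 0.123, edgeR). It was 0.03 (SE 0.12) in Rosa26KO and 0.38 (SE 0.11, adjusted p = 0.0698) in p53KO. The interaction was 0.35 (SE 0.16, unadjusted p = 0.0446, adjusted p = 0.572). For the interaction, edgeR called 0 of 10 members and 0% of all genes (1221 genes at an unadjusted p under 0.05; DESeq2 called 5 genes and voom 0). B2m was the 1 member with an unadjusted p under 0.05, against 4.47% of genes as higher. The interaction was above 0 for 7 of 10 members and 48.9% of genes.

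Among the peptide transport and loading genes, Tapbp, which encodes the tapasin that bridges transporter and heavy chain, had the smallest diet p-value. Tapbp ran in Rosa26KO at 152, 186 and 260.1 CPM (lowest, median, highest) on control diet and at 194, 207 and 232 CPM on HFD. In p53KO the levels were 170.4, 214 and 221 CPM on control diet and 223, 247 and 313 CPM on HFD. In Rosa26KO the control-diet range enclosed the HFD range, while in p53KO all 7 HFD libraries lay above all 6 control-diet libraries. That order, 1 of 10 members, was seen in 0.644% of genes between the p53KO groups. Between the other pairs of groups 0 members stood wholly above, against 1.2% of genes for diet in Rosa26KO, 0.113% for genotype on control diet and 0.0778% for genotype on HFD. The diet difference of Tapbp was 0.22 on average (SE 0.078, adjusted p = 0.0796, edgeR), 0.12 (SE 0.11) in Rosa26KO and 0.32 (SE 0.11, adjusted p = 0.101) in p53KO. Exons of Tapbp share 904 bases with the antisense gene Gm19412. On the opposite strand, Tap2 shares 533 bases with Gm15821 and Psmb8 498 bases with Gm20496. Whether counting used the strand is not stated.

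Tap1, a subunit of the peptide transporter, ran at 45.8, 60.8 and 92.2 CPM in Control_Rosa26KO and 61.6, 68.0 and 81.6 CPM in HFD_Rosa26KO (lowest, median, highest). In p53KO it ran at 51.7, 65.3 and 99.3 CPM on control diet and 61.7, 84.8 and 111 CPM on HFD. The averaged diet difference was 0.25 (SE 0.12, adjusted p = 0.204, edgeR), and diets overlapped in each genotype. Tap2, its partner, ran at 29.9, 43.2 and 49.5 CPM in Control_Rosa26KO and 40.1, 49.3 and 56.0 CPM in HFD_Rosa26KO. In p53KO Tap2 ran at 39.8, 45.9 and 61.9 CPM on control diet and 46.2, 50.0 and 61.3 CPM on HFD. All 7 HFD_p53KO values of Tap2 were above the Control_p53KO median and none above its highest value, that of Control_p53KO 3. The averaged difference of Tap2 was 0.17 (SE 0.080, adjusted p = 0.182, edgeR).

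The immunoproteasome subunits did not pass the test either. Psmb8 ran at 30.6, 40.4 and 55.6 CPM in Control_Rosa26KO, 40.3, 48.9 and 58.9 CPM in HFD_Rosa26KO, 35.7, 46.3 and 70.6 CPM in Control_p53KO and 47.1, 57.5 and 76.1 CPM in HFD_p53KO (lowest, median, highest). Psmb9 ran at 16.7, 23.2 and 29.6 CPM, 20.04, 25.8 and 30.4 CPM, 18.4, 25.3 and 37.1 CPM, and 25.7, 30.9 and 37.0 CPM in the same order of groups. HFD medians of Psmb8 and Psmb9 were above control-diet medians in both genotypes, with overlapping groups. Averaged diet differences were 0.27 for Psmb8 (SE 0.11, adjusted p = 0.138) and 0.22 for Psmb9 (SE 0.11, adjusted p = 0.205) by edgeR. Psmb10, the subunit encoded outside the MHC, had medians of 34.3, 34.8, 34.2 and 36.9 CPM in these groups, again in that order, and an averaged difference of 0.02 (SE 0.090, adjusted p = 0.940). The mean ratio of Psmb8 to the subunit it replaces, Psmb5, was 0.788 on control diet and 0.923 on HFD in Rosa26KO, and 1.002 and 0.983 in p53KO, with SDs of 0.136 to 0.335. For Psmb9 over Psmb6 the means were 0.255, 0.334, 0.327 and 0.370 (SDs 0.0596 to 0.0996), and for Psmb10 over Psmb7 they were 0.361, 0.397, 0.433 and 0.374 (SDs 0.0624 to 0.139). In each ratio the highest library of all 25 was Control_p53KO 3.

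Nlrc5 ran at 31.5, 44.8 and 55.8 CPM in Control_Rosa26KO and 33.3, 43.9 and 53.1 CPM in HFD_Rosa26KO (lowest, median, highest). In p53KO it ran at 37.8, 54.3 and 79.9 CPM on control diet and 36.8, 52.0 and 63.6 CPM on HFD. Diets therefore covered similar ranges, with an averaged log2 difference of -0.03 (SE 0.12, adjusted p = 0.921, edgeR).

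Across the 10 genes the averaged diet difference was above 0 for 9, with a median of 0.21 against -0.01 over all genes tested, of which 47.6% were above 0. An unadjusted p under 0.05 in the higher direction was found for 7 members (H2-D1, Tapbp, B2m, Psmb8, Tap2, Tap1 and Psmb9) and for 11.1% of genes. In Rosa26KO 9 members were above 0 (50.6% of genes) and 1 had an unadjusted p under 0.05 in the higher direction (7.55% of genes). In p53KO 8 were above 0 (45.9% of genes) and 3 had such a p (9.05% of genes). The members vary together, so these counts are not independent of each other, and the members were chosen with earlier results of these data known. Hepatocyte markers moved with diet in the opposite direction: 5 of 8 fell (Cps1, Alb, Apoa1, Ass1 and Serpina1c), where 9.71% of all genes were called in either direction. They fell by 0.52 (Apoa1) to 0.89 (Cps1) on the log2 scale (adjusted p 0.00452 for Cps1 to 0.0491 for Serpina1c, edgeR). The part of this shift in the class I values was not tested. Without the 3 libraries high in neutrophil markers (Control_p53KO 1, Control_p53KO 3 and HFD_Rosa26KO 6), H2-D1 differed by 0.44 (adjusted p = 0.00670), and Psmb8 (0.39, 0.0204), Tap2 (0.24, 0.0452), Tapbp (0.26, 0.0463) and Psmb9 (0.32, 0.0468) passed as well in edgeR. This set was chosen after the data had been seen, and it includes Control_p53KO 3, the highest Control_p53KO library for the latter 4 genes, so leaving it out lowers the control-diet level.

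**Figure D3:**
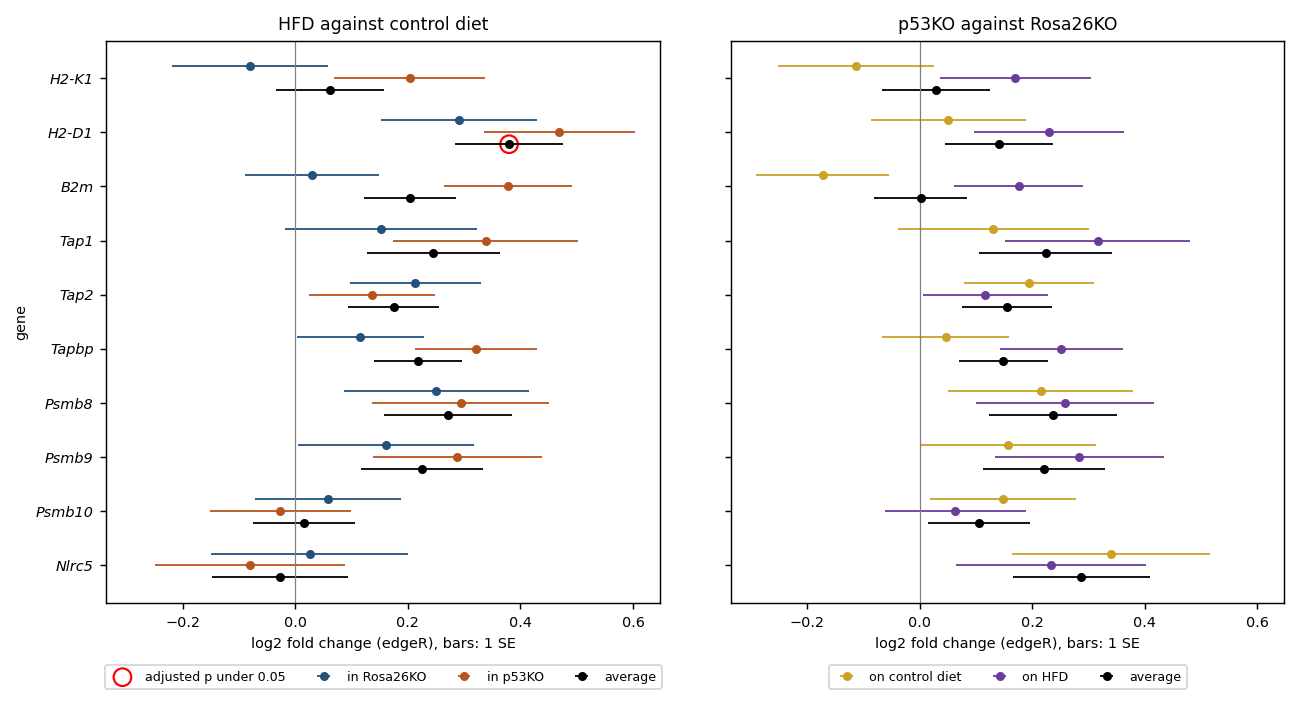
Log2 fold changes of the 10 genes from edgeR with bars of 1 SE, for HFD against control diet (left) and p53KO against Rosa26KO (right), in each stratum and averaged. The averaged diet difference of H2-D1 (0.38, ringed) was the only value with an adjusted p under 0.05.

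Between genotypes none of the 10 genes passed the test. On control diet edgeR called 0 of 10 members and 0% of genes (1408 genes at an unadjusted p under 0.05, 5.84% as higher, and 0 members; DESeq2 called 1 gene and voom 0). On HFD it called 0 members and 0% of genes (509 genes at an unadjusted p under 0.05; DESeq2 called 1 gene and voom 0). For the average it again called 0 members and 0% of genes (573 genes at an unadjusted p under 0.05; DESeq2 called 7 and voom 2, with 0 members). Nlrc5 had the highest averaged difference, 0.29 (SE 0.12, unadjusted p = 0.0271, adjusted p = 0.966), and Psmb8 followed with 0.24 (SE 0.11, unadjusted p = 0.0488, adjusted p = 0.966). These were the 2 members with an unadjusted p under 0.05, against 2.36% of genes as higher. The remaining averages ran from 0.22 for Tap1 to 0.001 for B2m. On HFD, Tapbp was the 1 member with an unadjusted p under 0.05 (0.25, SE 0.11, unadjusted p = 0.0296 and adjusted p = 0.9998 by edgeR), against 1.73% of genes as higher. The genotype difference was above 0 for 8 members on control diet (51.9% of genes), 10 on HFD (52.8%) and 10 in the average (53.3%). On control diet H2-K1 (-0.11, SE 0.14) and B2m (-0.17, SE 0.12) were the 2 below 0.

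Control_p53KO 3, the library with the highest T and NK cell and Kupffer cell markers, had the highest level of its group in 7 members: Tap1 (99.3 CPM), Tap2 (61.9 CPM), Tapbp (221 CPM), Psmb8 (70.6 CPM), Psmb9 (37.1 CPM), Psmb10 (52.9 CPM) and Nlrc5 (79.9 CPM). It was not the highest in H2-K1 (1367 CPM), H2-D1 (1108 CPM) or B2m (2256 CPM). Without Control_p53KO 1 and 3, the genotype difference on control diet was -0.01 for Psmb9 and -0.04 for Psmb10, against 0.16 and 0.15 with all libraries. For Psmb8 this difference ran from 0.03 to 0.30 over the alternative settings and from 0.07 to 0.32 with each library left out, against 0.21 in the reported fit. Its genotype average ran from 0.12 to 0.31 over the alternative settings, against 0.24.

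**Figure D4:**
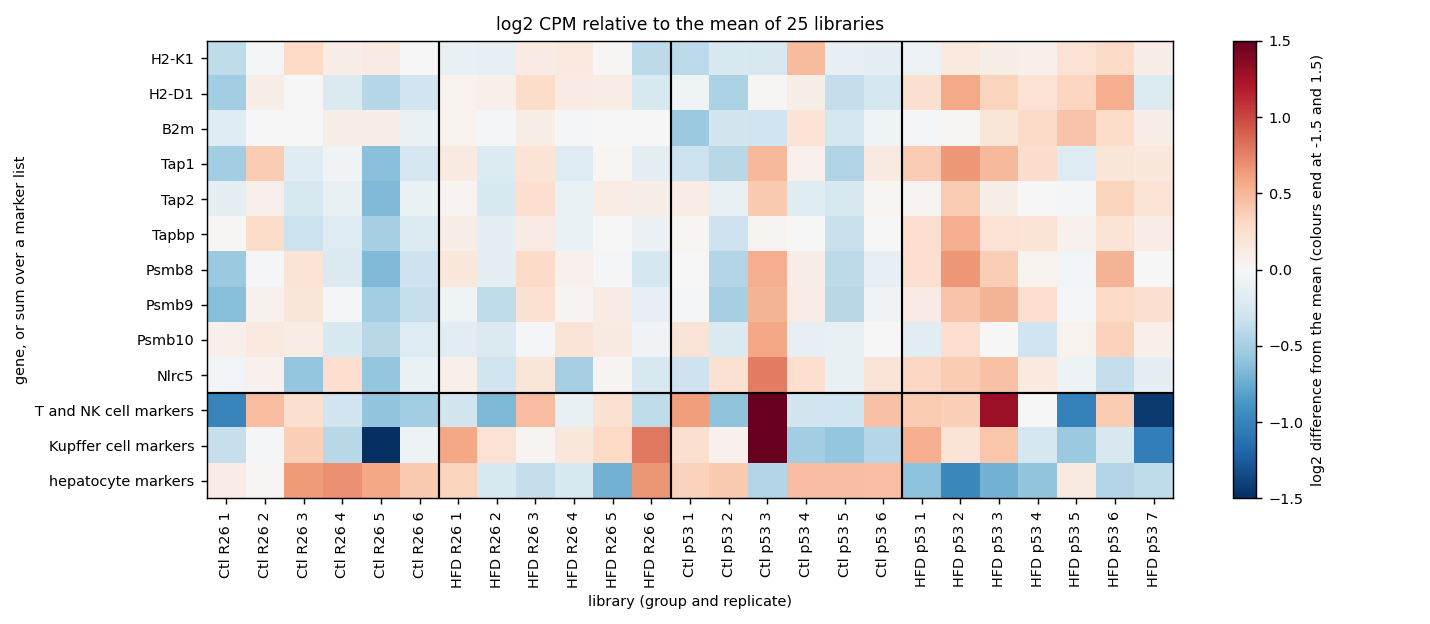
Log2 CPM of the 10 genes and of 3 marker sums (rows) in each of the 25 libraries (columns, grouped) relative to the mean of all libraries, with colours ending at -1.5 and 1.5. Control_p53KO 3 is high in Tap1, Tap2, the immunoproteasome subunits, Nlrc5 and the T and NK cell and Kupffer cell markers, while hepatocyte markers are low in most HFD libraries.

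Joint variation between libraries was measured as the correlation of log2 CPM over the 25 libraries after each group's mean had been subtracted, with permutation p-values from 100000 shuffles within groups adjusted over 14132 genes. Nlrc5 correlated with Tap1 at r = 0.71 (rho = 0.73, permutation p = 0.000320, adjusted 0.0161). Tap1 was the 1 of 9 other members past the threshold for Pearson's r, against 10.3% of all genes. Tapbp was next (r = 0.54, rho = 0.61, permutation p adjusted 0.0683 for r and 0.0467 for rho). The heavy chains and B2m did not pass, with r to their activator of -0.12 for H2-K1, 0.19 for H2-D1 and 0.04 for B2m. The relation with Tap1 had r = 0.58 without the libraries farthest from the Nlrc5 median (Control_p53KO 3 and Control_Rosa26KO 5), and 0 members then passed. The call was thus not kept without them. Fewer libraries also lower the power, and no other libraries were left out for comparison. Within the 3 runs of library names r was 0.28, 0.85 and 0.54. The runs held 8, 8 and 9 libraries, and group means were subtracted within each run. An r within a run therefore rests on few independent differences and can be large without a relation over all libraries. Nlrc5 and B2m, for example, had r = 0.89 in the first run against 0.04 over all.

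Pairs other than those with Nlrc5 were examined after these values had been seen. The limit on r within runs holds for them too, so those values are descriptions. Psmb8 and Psmb9, neighbours on either side of Tap1, had r = 0.87 (rho = 0.86, permutation p adjusted 0.0202 for r), the highest r of any gene with Psmb8, for which 5.72% of genes passed. It was 0.87 without the 2 libraries farthest from the Psmb8 median, and 0.98, 0.97 and 0.77 within runs. Psmb9 and Tap1, whose starts flank the shared interval printed above, had r = 0.81 (rho = 0.77, permutation p adjusted 0.0404; 0.87% of genes passed with Psmb9), with 0.76 without the farthest libraries and 0.90, 0.80 and 0.96 within runs. Their annotated exons share 212 bases on opposite strands. H2-D1 correlated with Psmb8 at r = 0.82 (rho = 0.87, permutation p adjusted 0.0177), a rank of 4 among all genes, where 0.226% of genes passed. That r was 0.79 without the farthest libraries and 0.92, 0.58 and 0.70 within runs. Tap1 and Tapbp had r = 0.75 (rho = 0.73, permutation p adjusted 0.00910; 17.9% of genes passed with Tap1), with 0.68 without the farthest libraries and 0.75, 0.74 and 0.93 within runs.

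Among the members, B2m had its highest r with H2-K1, and whether the pair passed depended on which of the 2 was the reference gene. The r was 0.72 (rho = 0.57). With B2m as the reference gene the permutation p was 0.000210 (adjusted 0.0939; 0% of genes passed), and with H2-K1 as the reference it was 0.000110 (adjusted 0.00589; 11.5% of genes passed). The r was 0.71 without the libraries farthest from the B2m median and 0.59 without those farthest from the H2-K1 median (Control_p53KO 4 and HFD_Rosa26KO 6). Within runs it was 0.76, 0.85 and 0.31. With the transport and proteasome genes B2m had r from -0.30 (Tap2) to 0.10 (Psmb9). H2-D1 and H2-K1 had r = 0.50 (rho = 0.45, permutation p adjusted 0.136). Correlations with marker sums were taken over the same libraries without subtracting group means, so they include differences between the groups. The summed neutrophil markers had r of -0.67 with H2-K1 and -0.61 with B2m, but 0.43 with Tap2. The summed T and NK cell markers had r of 0.65 with Psmb8, 0.64 with Psmb9 and 0.60 with Tap1. Dendritic cell markers had r of 0.64 with Tap1 and 0.58 with Tap2. The summed hepatocyte markers had r of -0.73 with Tapbp, -0.69 with H2-D1, -0.69 with Tap1, -0.65 with Psmb8, -0.62 with Psmb9 and -0.61 with Tap2. These marker relations are descriptions, and their part in the correlations was not tested.

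**Figure D5:**
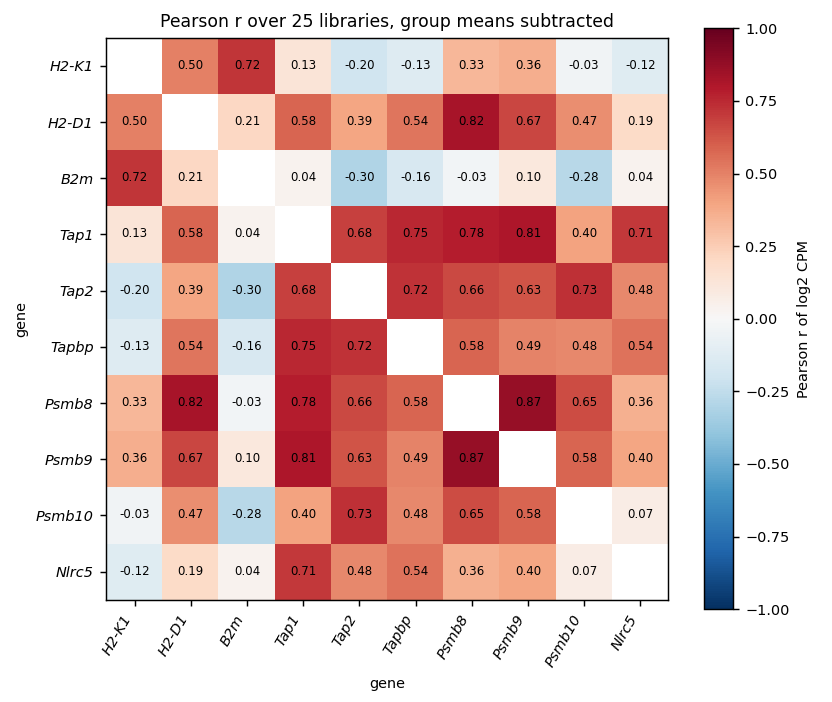
Pearson r of log2 CPM between each pair of the 10 genes over 25 libraries with group means subtracted (both axes list the genes, colour and number give r). Psmb8, Psmb9, Tap1, Tap2 and Tapbp correlate with each other at 0.49 to 0.87, while B2m is near 0 or below with them and at 0.72 with H2-K1.

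Among the 8 genes most like the mean of the 10 members across the 25 libraries were Gm12250 (r = 0.89), H2-T10 (0.88), H2-L (0.86), Irgm1 (0.85), Parp10 (0.84), Igtp (0.84) and Trafd1 (0.83). Each r was with the members' mean z-score, without subtracting group means. The counts of H2-L stand in a nearly fixed ratio to those of H2-D1, itself a member, so its r is not separate from the members.

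Other heavy chain genes of the class I family changed in both directions on HFD. Of 16 tested, 3 rose and 3 fell in the average over genotypes (median 0.09, edgeR), where 9.71% of all genes passed in either direction. H2-T24 rose by 1.01 (SE 0.23, adjusted p = 0.00720), H2-T22 by 0.54 (SE 0.11, adjusted p = 0.00390) and H2-T10 by 0.46 (SE 0.12, adjusted p = 0.0184). H2-T10 and H2-T22, non-classical molecules known as ligands of gamma-delta T cells, share 16.0% and 18.5% of their 75-base windows with other genes. These are mostly each other, so their counts cannot be fully told apart. Their exons also share 925 and 1003 bases with antisense genes, BC023719 and A930015D03Rik. Mr1, which presents microbial vitamin B metabolites to MAIT cells, fell by 0.79 (SE 0.13, adjusted p = 0.000762). H2-Q7 fell by 0.36 (SE 0.10, adjusted p = 0.0283) with 16.95% of its windows shared, and H2-Q2 fell by 0.65 (SE 0.18, adjusted p = 0.0212) from a level under 1 CPM per kilobase. Group means of H2-Q7 were 160 CPM on control diet and 106 CPM on HFD in Rosa26KO, and 131 CPM and 120 CPM in p53KO.

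The counts of the next 3 lists stand beside 9.71% of all genes called in either direction for the averaged diet difference. Among 15 constitutive proteasome and activator subunits, 1 rose on HFD (Psma1, 0.17, SE 0.051, adjusted p = 0.0325) and 0 fell, with a median of 0.03. The activator subunits Psme1 and Psme2, which interferons are known to raise, had differences of 0.08 (adjusted p = 0.534) and 0.11 (adjusted p = 0.406). Of 11 peptide loading and trimming partners 1 fell, the cytosolic peptidase Tpp2 (-0.20, SE 0.058, adjusted p = 0.0283), and the median was -0.04. Erap1, the aminopeptidase that trims peptides in the endoplasmic reticulum, differed by 0.02 (adjusted p = 0.913). Of 30 regulators 2 rose, among them Irf7 (0.81, SE 0.25, adjusted p = 0.0394), and 1 fell, the interferon receptor chain Ifnar2 (-0.19, SE 0.060, adjusted p = 0.0476), with a median of -0.03. Irf1, which binds the interferon element of class I promoters, differed by -0.004 (adjusted p = 0.988).

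Interferon-induced genes outside the pathway had larger median diet differences than the members, a contrast that was not tested. Of 22 type I interferon-stimulated genes 17 rose on HFD in the average over genotypes (median 1.09), where 4.64% of all genes were called as higher. Among them were Isg15 (1.34, SE 0.32, adjusted p = 0.00911) and Oasl2 (1.66, SE 0.39, adjusted p = 0.00904). Of 13 interferon-gamma-induced genes 4 rose (Gbp3, Cd274, Gbp7 and Irgm1; median 0.48). Of 6 class II presentation genes 0 passed in the average. Their median diet difference was 0.07 in Rosa26KO (5 of 6 above 0) and -1.05 in p53KO (0 of 6 above 0), where Control_p53KO 3 was high among the control-diet libraries, as in Cd74 with 2335 CPM against at most 423 CPM in the other 5. In the genotype comparisons and in the interaction edgeR called 0% of all genes, and so 0 genes of these lists. The lists were drawn up with earlier results on interferon genes in these samples known, and their counts are not independent support.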

How the data were processed

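Raw read counts per gene were deposited by the authors as 1 table for all 25 libraries. Per the submitters' processing notes, STAR and HOMER were used with the GRCm38 (mm10) build. Their versions, the strand, the annotation and the treatment of reads with several matches are not given in the labels. The labels do not say that each library came from its own mouse. Each was treated as a separate sample, and p-values measure only the spread between these samples, which may be technical.

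Low counts were removed with filterByExpr (edgeR 4.0.16; minimum count 10, minimum total 15), libraries were scaled by TMM, and a robust quasi-likelihood model with 1 mean per group was fitted to all 25 libraries. P-values of 7 comparisons were adjusted by Benjamini-Hochberg over 14133 genes, with a threshold of 0.05. Fold changes are log2. Correlations used log2 CPM with a prior count of 2. Alternatives were RLE scaling, library totals only, DESeq2 1.42.0, all genes without the count filter, voom in limma 3.58.1 with sample weights, edgeR without the robust option, a replicate block, a term for runs of library names, only the groups compared, and each library left out. Leaving out Control_p53KO 1 and 3, or the 3 libraries high in neutrophil markers, and the ratio of H2-D1 to H2-K1 were added after seeing the data. The fit was also run on simulated counts that vary independently between genes. Its outcome is not given here and is not used as support. R 4.3.3, Python 3.11.15, numpy 2.4.6, scipy 1.17.1 and matplotlib 3.10.9 were used.

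The members and gene lists were chosen with earlier results of these data known. The 10 members are always named, with Trp53. List genes past the threshold in any comparison, or of the 2 smallest p-values of a list in a comparison, could be named, with set proteasome partners and regulators and the 8 genes most like the members' mean. H2-L was added after its values were seen. Promoter sequences are from RefSeq (GRCm38.p6), positions from GENCODE M21, and 8 of 10 members had a promoter entry. Of the genes these rules name, 1 is not reported here, while the counts include it.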

Additional observations from a re-analysis of the deposited data

Results flagged for a closer look

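The values of the 10 genes in each group, and the ratio of H2-D1 to H2-K1, were examined for a library whose gap to the next exceeded Dixon's 95% critical value for the group's range. Of 44 groups of values tested, 2 held such a library, where chance gives about 1 in 20. H2-K1 in Control_p53KO 4 was the highest of its group at 2235.9 CPM, and Tapbp in HFD_p53KO 2 was the highest of its group at 313.2 CPM.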

How the results depend on the processing

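The averaged diet difference of H2-D1 kept its direction and an adjusted p under 0.05 in all alternatives run: 0.38 to 0.56 over settings and 0.35 to 0.41 with each library left out. With library totals in place of TMM the median of all genes shifted by 0.17, against which H2-D1 differed by 0.56 and H2-K1 by 0.24. Counts of called genes depended on the setting. For HFD against control diet, averaged, they were 2769 (4 members) with library totals, 5010 (7) with voom, 2282 (3) with the replicate block, 2495 (5) without Control_p53KO 1 and 3 and 2500 (5) without the 3 libraries high in neutrophil markers. Members called were 3 with DESeq2 and 2 with a term for runs. In p53KO the counts were 1196 (2 members) with totals, 907 (3) with DESeq2, 2189 (6) with voom, 785 (2) with the replicate block, 633 (2) with runs and 121 with only the groups compared. In Rosa26KO they were 615 with DESeq2, 3038 (1) with voom, 549 with the replicate block, 442 with runs, 653 with only the groups compared, and 530 and 538 without the sets of 2 and 3 libraries. For the genotype average they were 7 with DESeq2, 2 with voom, 1 with the replicate block and 1 without either set of libraries. DESeq2 called 1 gene for genotype on each diet and 5 for the interaction. With each library left out, counts ran from 93 to 509 for diet in Rosa26KO, 173 to 760 (0 to 2 members) in p53KO, 1012 to 1883 (1 to 2 members) averaged, and 0 to 1 for the genotype average. In p53KO H2-D1 passed without Control_Rosa26KO 2, Control_p53KO 3, Control_p53KO 4 or HFD_p53KO 7, and B2m without Control_p53KO 4. For the diet average Tapbp passed without Control_Rosa26KO 2, Psmb8 without Control_p53KO 3 and B2m without Control_p53KO 4. Without the 2 libraries farthest from the Nlrc5 median, 0 members correlated with it past the threshold. The ratio of H2-D1 to H2-K1 differed by 0.28 to 0.35 with each library left out. For genotype on control diet, Psmb9 reversed to -0.0021 with voom, -0.0149 without Control_p53KO 1 and 3 and -0.0158 without the 3 libraries, and Psmb10 to -0.0414 and -0.0429 without these sets. Of 70 member values 24 lay within 1 SE of 0, and sign changes of those, 75 over all alternatives, were not counted as reversals. The causes of these changes were not tested. Same-numbered libraries of different groups correlated at -0.53 to 0.57 (mean 0.12) and differently numbered ones at -0.60 to 0.72 (mean -0.02). These ranges overlapped, with the higher mean for same-numbered libraries. Whether the numbers pair the samples was not tested, and the replicate block moved counts as given. Members had at least 297 counts in every library, so counting error was small beside the spread between libraries.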
